A study of Mus musculus with 13 samples.

Results

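Open chromatin was described at 7 genes of polycystic kidney disease: Pkd1, Pkd2, Pkhd1, Bicc1, Glis2, Glis3 and Ift88. Every peak of the single nucleus ATAC-seq (snATAC-seq) peak list that overlapped one of these gene bodies or the 2000 bp before its start was taken, in the mm10 build with GENCODE M21, which gave 279 of the 300755 peaks. The 7 genes are among 21951 annotated protein-coding genes, of which 18268 had at least 1 such peak, with a median of 3. Nuclei came from whole mouse kidneys in 2 samples at birth (P0, for which the protocol names 1-day-old pups and both kidneys), 1 sample at 3 weeks (P21) and 2 samples at 8 weeks (P56). P21 and P56 form the adult group, as in the study. The adult mice were perfused before harvest and this is not said of the pups, so stage and harvest cannot be told apart. The labels give no strain, genotype, sex or treatment for these samples, and do not say whether each sample is a separate animal, so the p-values measure the spread between these samples, which may be technical. Nuclei carry the authors' cluster names: nephron progenitors (NP), podocytes (Podo), the convoluted (PCT) and straight (PST) parts of the proximal tubule, LOH for the loop of Henle, DCT and CNT for the distal convoluted and connecting tubules, principal (PC) and intercalated (IC) cells of the collecting duct, endothelial cells (Endo), immune cells (Immune) and 2 stromal clusters (Stroma 1 and Stroma 2).

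Cystic kidney disease arises when tubule cells lose proteins that act at or near the primary cilium, the single antenna-like organelle of the tubule cell. Pkd1 encodes polycystin-1, a large receptor-like membrane protein, and Pkd2 encodes polycystin-2, a cation channel that binds it. The dominant form of the disease follows mutation of either, and the recessive form follows mutation of Pkhd1, which encodes the membrane protein fibrocystin of tubule and bile duct cells. Bicc1 encodes an RNA-binding protein, Glis2 and Glis3 encode zinc finger transcription factors related to the Gli factors of Hedgehog signalling, and Ift88 encodes a subunit of the intraflagellar transport B (IFT-B) particle that builds the cilium. Loss of each of these 4 in mice gives cystic or degenerating kidneys.

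The samples held 3361 to 7129 nuclei and 16980853 to 43794155 open calls, an open call being a nucleus in which a peak holds a fragment. Median depth per nucleus ran from 3371 open peaks in P56 replicate 1 to 6737 in P0 replicate 2. It was lower in all 3 adult samples than in both P0 samples in most clusters, for example 2099 to 2441.5 against 6508.5 to 7195.5 in Endo. Of 20 marker genes, 19 had their highest mean level in a cluster they mark (Akr1c21, which marks both proximal clusters, in PCT), and Cited1, a progenitor gene, was highest in podocytes. Between 125 and 223 barcodes of each sample recurred in another sample. NP held 2037 nuclei at P0 and 195 in the adult samples. In all, 27652 of 28316 nuclei were in the 13 clusters, and the smallest sum of a sample and cluster had 39 nuclei.

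Peaks were numbered from the 5′ end of each gene. Of the 279 peaks, 245 lay in introns and 9 over an annotated start of a member. Pkd1 (ENSMUSG00000032855.6, chr17:24549834-24596508, plus strand) held 8 peaks and Pkd2 (ENSMUSG00000034462.9, chr5:104459450-104505819, plus strand) held 10. Pkhd1 (ENSMUSG00000043760.16, chr1:20057779-20618064, minus strand) had 51 peaks over 560286 bp and Bicc1 (ENSMUSG00000014329.14, chr10:70922832-71159700, minus strand) had 75 over 236869 bp. Glis2 (ENSMUSG00000014303.13, chr16:4594713-4624924, plus strand) held 12 peaks in 30212 bp. Glis3 (ENSMUSG00000052942.13, chr19:28258851-28680077, minus strand) held the most, 112, and Ift88 (ENSMUSG00000040040.16, chr14:57424062-57517936, plus strand) held 11. Peaks were densest in Glis2, at 37.3 per 100 kb of window, and sparsest in Pkhd1, at 9.07.

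The sequences shown here carry the contrast in the data between the Pkd1 start, open in every cluster, and sites open in fewer. Coordinates are those of the bases printed, and shares are those of the whole peaks. They were read from the GRCm38 reference, 5′ to 3′ on the strand of the gene, and are the central 300 bases of a peak except for Pkd1 peak 1, where the 228 bases of the peak before the gene start are given. The Pkd1 start (chr17:24549606-24549833, plus strand) was open in 34.6% or more of the nuclei of every cluster, and the Pkhd1 start (chr1:20618123-20618422, minus strand) mostly in tubule. The other 4 sites were picked for display with their values seen, and were open mainly in 1 cluster or a few. They are an intron of Bicc1 open in IC (peak 72, chr10:70938395-70938694, minus strand), another open in Stroma 2 (peak 39, chr10:71062381-71062680, minus strand), an intron of Pkhd1 open in CNT (peak 6, chr1:20605642-20605941, minus strand) and a Pkd2 site over a coding exon open in PST (peak 6, chr5:104480398-104480697, plus strand). Capitals would mark a match to a motif searched, and these 6 windows hold none.
Pkd1 peak 1: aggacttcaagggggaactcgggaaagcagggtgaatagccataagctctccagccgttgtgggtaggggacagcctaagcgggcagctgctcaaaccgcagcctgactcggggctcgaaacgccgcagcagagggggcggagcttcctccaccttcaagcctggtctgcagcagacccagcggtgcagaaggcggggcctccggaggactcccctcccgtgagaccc
Pkhd1 peak 2: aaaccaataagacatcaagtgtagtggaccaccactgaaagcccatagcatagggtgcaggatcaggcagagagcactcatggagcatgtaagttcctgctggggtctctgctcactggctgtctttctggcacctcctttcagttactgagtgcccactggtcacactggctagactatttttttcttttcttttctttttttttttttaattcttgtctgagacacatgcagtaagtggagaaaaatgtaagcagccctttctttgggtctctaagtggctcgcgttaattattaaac
Bicc1 peak 72: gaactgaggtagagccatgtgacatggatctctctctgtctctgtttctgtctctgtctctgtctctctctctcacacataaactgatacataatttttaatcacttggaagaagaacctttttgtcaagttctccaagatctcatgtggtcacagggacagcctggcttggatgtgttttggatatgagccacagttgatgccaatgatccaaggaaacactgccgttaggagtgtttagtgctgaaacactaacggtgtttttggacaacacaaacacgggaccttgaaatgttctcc
Bicc1 peak 39: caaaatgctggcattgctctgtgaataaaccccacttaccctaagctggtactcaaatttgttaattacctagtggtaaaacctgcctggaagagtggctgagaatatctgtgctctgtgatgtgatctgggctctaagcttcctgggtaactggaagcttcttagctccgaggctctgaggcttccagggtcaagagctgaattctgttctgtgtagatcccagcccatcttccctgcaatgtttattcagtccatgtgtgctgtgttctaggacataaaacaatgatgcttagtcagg
Pkhd1 peak 6: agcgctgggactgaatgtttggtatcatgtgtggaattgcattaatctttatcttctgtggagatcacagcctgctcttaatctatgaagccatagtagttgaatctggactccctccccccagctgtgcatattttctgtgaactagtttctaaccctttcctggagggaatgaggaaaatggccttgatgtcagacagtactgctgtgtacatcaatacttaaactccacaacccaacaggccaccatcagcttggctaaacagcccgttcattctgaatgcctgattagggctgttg
Pkd2 peak 6: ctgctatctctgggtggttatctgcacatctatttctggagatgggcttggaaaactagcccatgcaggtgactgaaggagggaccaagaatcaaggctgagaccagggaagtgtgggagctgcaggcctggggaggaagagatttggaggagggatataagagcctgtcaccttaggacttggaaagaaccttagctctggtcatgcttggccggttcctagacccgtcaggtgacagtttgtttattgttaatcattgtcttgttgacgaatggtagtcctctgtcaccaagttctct

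The 7 motifs were searched on both strands, and the share of the central 300 bases of all 300693 peaks read that holds each is given in brackets: HNF4A as CAAAGTCCA (0.802%), RFX as GTTGCCAT (0.934%), TFAP2 as GCCNNNGGC (8.97%), GLI as GACCACCCA (0.267%), ESRR as TCAAGGTCA (0.854%), ETS as ACAGGAAGT (1.2%) and FOXI1 as TGTTTAC (5.09%). A match describes letters only. The start peaks also differed in base composition, with GC of 77.3% in the central 300 bases of the Glis2 start, 77.0% for Pkd1, 75.7% for Ift88, 73% for Glis3, 71.0% for Pkd2, 64.7% for Bicc1 and 43.7% for Pkhd1.

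To ask in which cell types the 7 genes were open, the open calls of all peaks of a gene were summed for each sample and cluster and expressed per 1000000 open calls of that sum (CPM), here called the level. Levels carry the number and width of a gene's peaks, so they were compared between clusters and not between genes. Each cluster was also tested against the mean of the other 12 with the quasi-likelihood test of edgeR, with the sample as a block and Benjamini-Hochberg (BH) adjustment over all genes and clusters. The clusters were made from these same nuclei, so the adjusted p-values rank differences. Of the 91 pairs of gene and cluster, 31 were called higher (34.1%) and 20 lower (22.0%), where 19.1% and 16.7% of the pairs of all genes were. PCT and PST, with 12 of the 31 higher calls, were each called higher for 6 genes and lower for Pkd1, where 27.8% and 26% of all genes were called higher in these clusters and 30.3% and 28.5% lower.

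The levels of the polycystin genes went opposite ways. The Pkd1 level was highest in Immune (123 ± 31.2, SD, n = 5 samples), Stroma 2 (122 ± 37.9), Endo (120 ± 34.3) and Stroma 1 (113 ± 28.2), and lowest in PCT (69.5 ± 12.8) and PST (61.3 ± 12.2). Stroma 2 had 94.4 and 95.6 CPM in the P0 samples, 123 in the P21 sample and 110 and 186 in those of P56, whereas PST had 58.1, 56.3, 78.3, 46.1 and 67.8 in the same order. Every Stroma 2 value lay above every PST value, a description with no share over all genes beside it. Pkd1 was called higher in Stroma 2 (log2 fold change 0.54 ± 0.06 SE, edgeR adjusted p = 5.4e-11), Endo (0.49, 3.63e-09) and Stroma 1 (0.35, 6.47e-05, not called without the block, 0.31), and lower in PCT (−0.39, 7.91e-07) and PST (−0.61, 2.54e-10), while Immune missed the threshold (0.22, 0.158). The whole range was 2.0-fold, and none of the 12 steps between neighbouring clusters exceeded the larger SD of the pair. The percent of nuclei with the Pkd1 start peak open ran otherwise, at 45.3% in PST, 40.9% in PCT, 40.1% in Stroma 2, 35.0% in Immune and 34.6% in Endo. Median depth was 5398.5 to 12173 open peaks in PST and 2090 to 3677 in Immune, and its part in the order of the levels was not tested.

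Pkd2 covered a wider range, 7.05-fold, and its level was highest in PST and PCT, where that of Pkd1 was lowest. Its level was 92.0 and 80.5 in PST at P0, then 144 (P21), 139 and 170 (P56), with a mean of 125 ± 37.6, and it was 90.6 ± 9.08 in PCT. In Immune it was 17.8 ± 12.7, with 7.68 to 38.8 over the samples. PST led in 4 of the 5 samples and PCT in the other. The log2 fold change was 1.5 ± 0.08 in PST (edgeR adjusted p = 1.41e-22), 1.00 in PCT (2.53e-16) and −1.56 in Immune (3.28e-08), and IC and LOH were called higher by smaller amounts (0.31 and 0.25). The IC call was lost without P0 replicate 1 (0.31), P21 replicate 1 (0.25) or P56 replicate 1 (0.30), under DESeq2 (0.32), without the filter on low counts (0.30), with nuclei thinned to 1000 open peaks (0.34), with sums of at least 50 nuclei (0.28), without the block (0.39) and with peaks of no other gene (0.29). The LOH call was lost without the block (0.30), with nuclei thinned (0.25), and without P21 replicate 1 (0.23) or P56 replicate 1 (0.21). Between neighbours in the order of the 13 clusters, the step from Endo (34.9 ± 6.79) to Immune was the 1 that exceeded the larger SD.

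Pkhd1 separated epithelium of the tubule and duct from the rest. Its level was 180 ± 9.37 in PCT, 180 ± 35.9 in CNT, 168 ± 16.6 in LOH, 162 ± 25.3 in PST, 159 ± 35.0 in PC, 155 ± 28.1 in DCT and 153 ± 18.3 in IC. The next in order after these 7 and NP was Stroma 1 at 64.0 ± 29.3, followed by Podo at 62.5 ± 26.9, Immune at 42.8 ± 34.3, Stroma 2 at 36.2 ± 9.42 and Endo at 21.6 ± 12.6. The break between IC and Stroma 1 exceeded the larger SD and held in 5 of 5 samples, whereas none of the steps among the 8 highest clusters exceeded theirs. Each of the 8 was called higher and each of the other 5 lower, from 1.11 in PCT (edgeR adjusted p = 9.37e-10) to −2.46 in Endo (1.01e-13), and the NP call was lost without P56 replicate 1 (0.36). The NP mean of 174 ± 103 joined values of 74.8 and 64.7 at P0 to values of 190 to 299 in the adult, and is taken up with the stages.

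Bicc1 was highest outside the tubule. In Stroma 2 its level was 285 and 258 at P0, then 346 (P21), 395 and 347 (P56) (mean 326 ± 54.5). NP followed with 299 ± 132, PCT with 265 ± 16.3 and PST with 249 ± 23.6, and Endo (80.3 ± 13.6) and Immune (74.2 ± 52.6) were lowest. The NP mean joined 156 and 163 at P0, below the 256 and 247 of PCT at P0, to 342 (P21), 445 and 388 (P56). Stroma 2 led in the P0 samples and at P21, and NP led in both P56 samples. The fold change against the other clusters was 0.92 ± 0.13 on the log2 scale in Stroma 2 (edgeR adjusted p = 1.75e-08), 0.55 in PCT, −1.25 in Endo (3.97e-09) and −1.59 in Immune (2.72e-08), whereas Stroma 1 missed the threshold (0.23, 0.226).

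Glis2 and Glis3 were both highest in PCT. The Glis2 level in PCT was 292 and 324 at P0, then 326 (P21), 247 and 335 (P56) (305 ± 36.2), against 271 ± 35.2 in PST, 248 ± 75.6 in LOH, 100 ± 15.7 in Endo and 99.3 ± 40.2 in Immune. Glis3 in PCT was 432 and 423 at P0, 550 at P21 and 625 in both P56 samples (531 ± 99.6), against 498 ± 115 in PST, 112 ± 80.3 in Immune and 95 ± 38.6 in Endo. Both genes were called higher in PCT (0.93 and 1.04) and PST (0.72 and 0.93) and lower in Immune (−1.01 and −1.47) and Endo (−0.77 and −1.64), with edgeR adjusted p of 6.1e-07 or less. Stroma 1 and Stroma 2 were also called lower for Glis2 (−0.34 and −0.59), the former not without P0 replicate 1 (−0.28) or P0 replicate 2 (−0.29), with nuclei thinned (−0.23) or without the block (−0.32).

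Ift88 had nearly the same level everywhere. Its 13 means ran from 25.3 ± 5.10 in Endo to 39.6 ± 13.7 in Immune, a range of 1.57-fold, and no step between neighbours exceeded the larger SD. It was called higher in PST (0.44 ± 0.11 on the log2 scale, edgeR adjusted p = 0.00125) and PCT (0.26, 0.033) and lower in none, and the PCT call was lost without P0 replicate 1 (0.30) or P56 replicate 1 (0.26). Both calls were lost with nuclei thinned (0.51 in PST and 0.32 in PCT) and without the block (0.39 and 0.23).

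**Figure D1:**
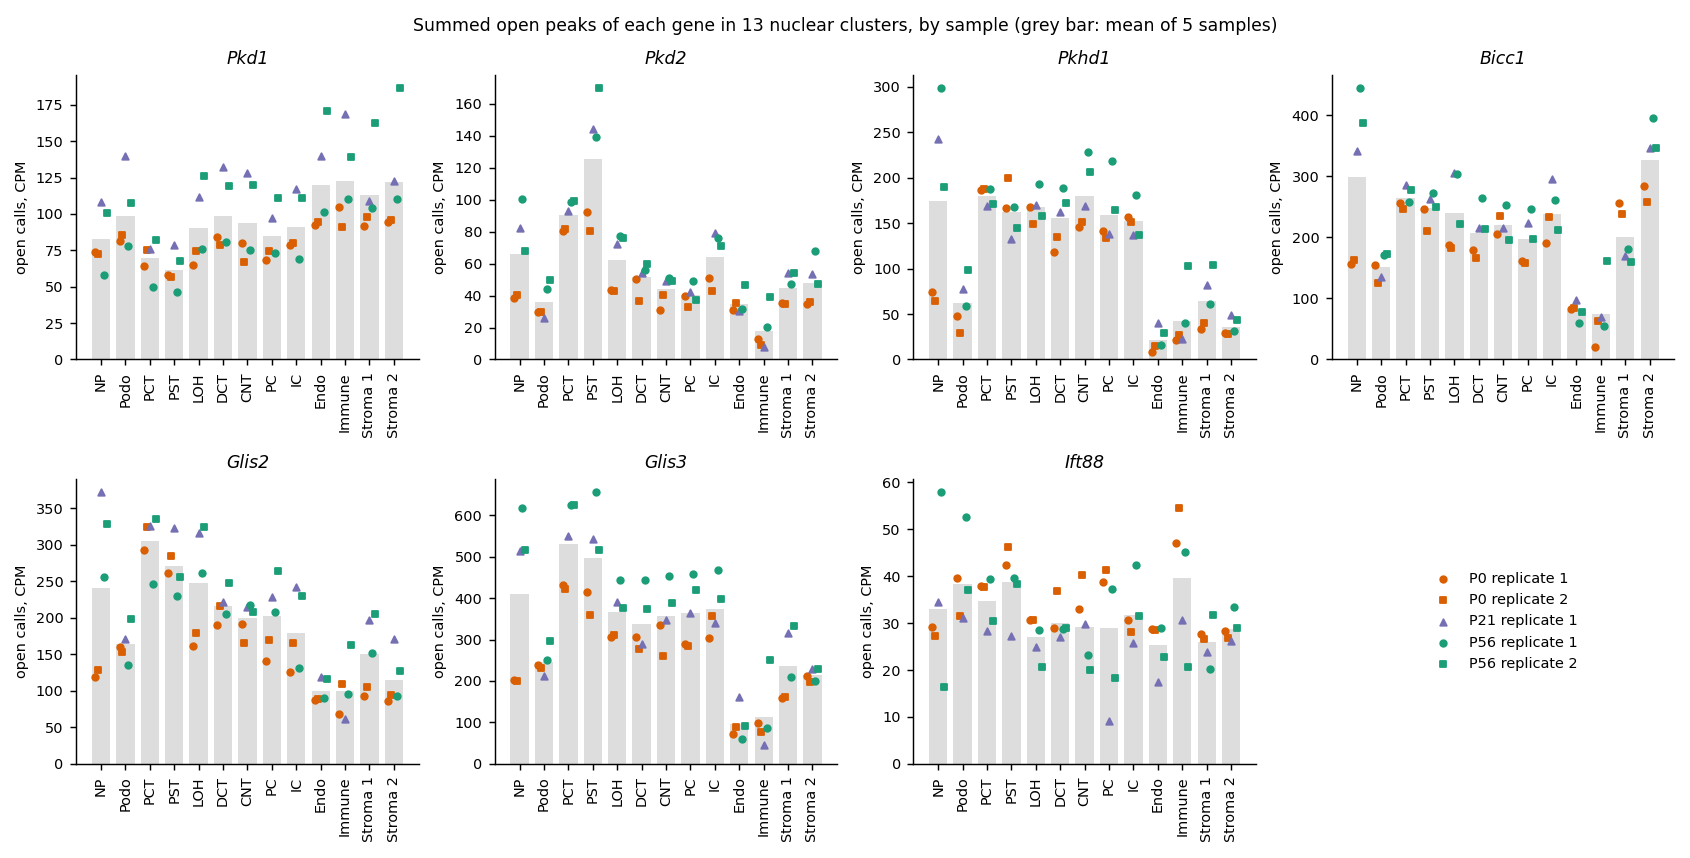
Level of each of the 7 genes, in open calls per 1000000 (CPM), in the 13 clusters, 1 panel a gene, with a grey bar for the mean of the 5 samples and a point for each sample (colour gives the age, shape the replicate). Pkd2, Glis2 and Glis3 sit highest in PCT and PST, Pkhd1 falls from 153 in IC to 64.0 in Stroma 1, and Ift88 stays between 25.3 and 39.6.

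Single peaks were described by their share, the percent of nuclei of a cluster in which the peak was open. Peaks with a mean share of 5% or more in a cluster, over the 5 samples of both stages, were taken as open there. Each sample weighs alike in this mean, although NP held 2037 nuclei at P0 and 195 in the adult samples. On this count 91 of the 279 peaks were open in at least 1 cluster, 5 in all 13 and 27 in exactly 1. PST had 62 open peaks, PCT 50, IC 37, NP 35, CNT 31, PC 29, LOH 28, DCT 27, Podo 18, Stroma 2 17, Stroma 1 15, Endo 10 and Immune 5. PST nuclei were also the deepest, with medians of 5398.5 to 12173 open peaks over the samples, against 2090 to 3677 in Immune, and the part of depth in these counts was not separated from that of cell type. Of the 91 peaks, 28 were open only in the proximal tubule, 11 only in distal tubule or duct and 6 only in these 2 kinds together, 4 only in stroma, 2 only in progenitors or podocytes and 1 only in Endo or Immune. A further 30 were mixed without Endo and Immune, and 4 were mixed with them. Of the proximal ones, 15 were in Glis3, 6 in Bicc1, 5 in Pkhd1 and 2 in Pkd2. The same counts were not made over all peaks of the list, so whether the many proximal sites are particular to these genes cannot be told. The other 245 peaks, not named in the text, had leading shares of 0.367% to 25.4%, with a median of 2.66%, and 40 of them stayed under 1%.

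Tested against the mean of the other clusters, 85 of the 279 peaks passed the filter on low counts. This filter keeps a peak with enough counts in as few sums as 1 cluster has, so a peak can enter through the cluster where it is high. Each of the 85 was called higher in at least 1 cluster, which the filter favours, so that count is no support. Of their 1105 pairs with a cluster, 295 were called higher (26.7%, against 22.1% over all peaks) and 159 lower (14.4%, against 11.9%). PCT had 57 of the 85 called higher (36.1% over all peaks) and LOH 41 (23.2%), and Endo had 48 called lower (18.4%). The median log2 fold change over all peaks was as far as 0.72 from 0 in a cluster, and DESeq2's size factors in place of those of edgeR moved it by up to 0.33 while calling 302 and 161 pairs, so a peak's value is relative to this scale. With nuclei thinned to 1000 open peaks each, 58 and 19 pairs were called.

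**Figure D2:**
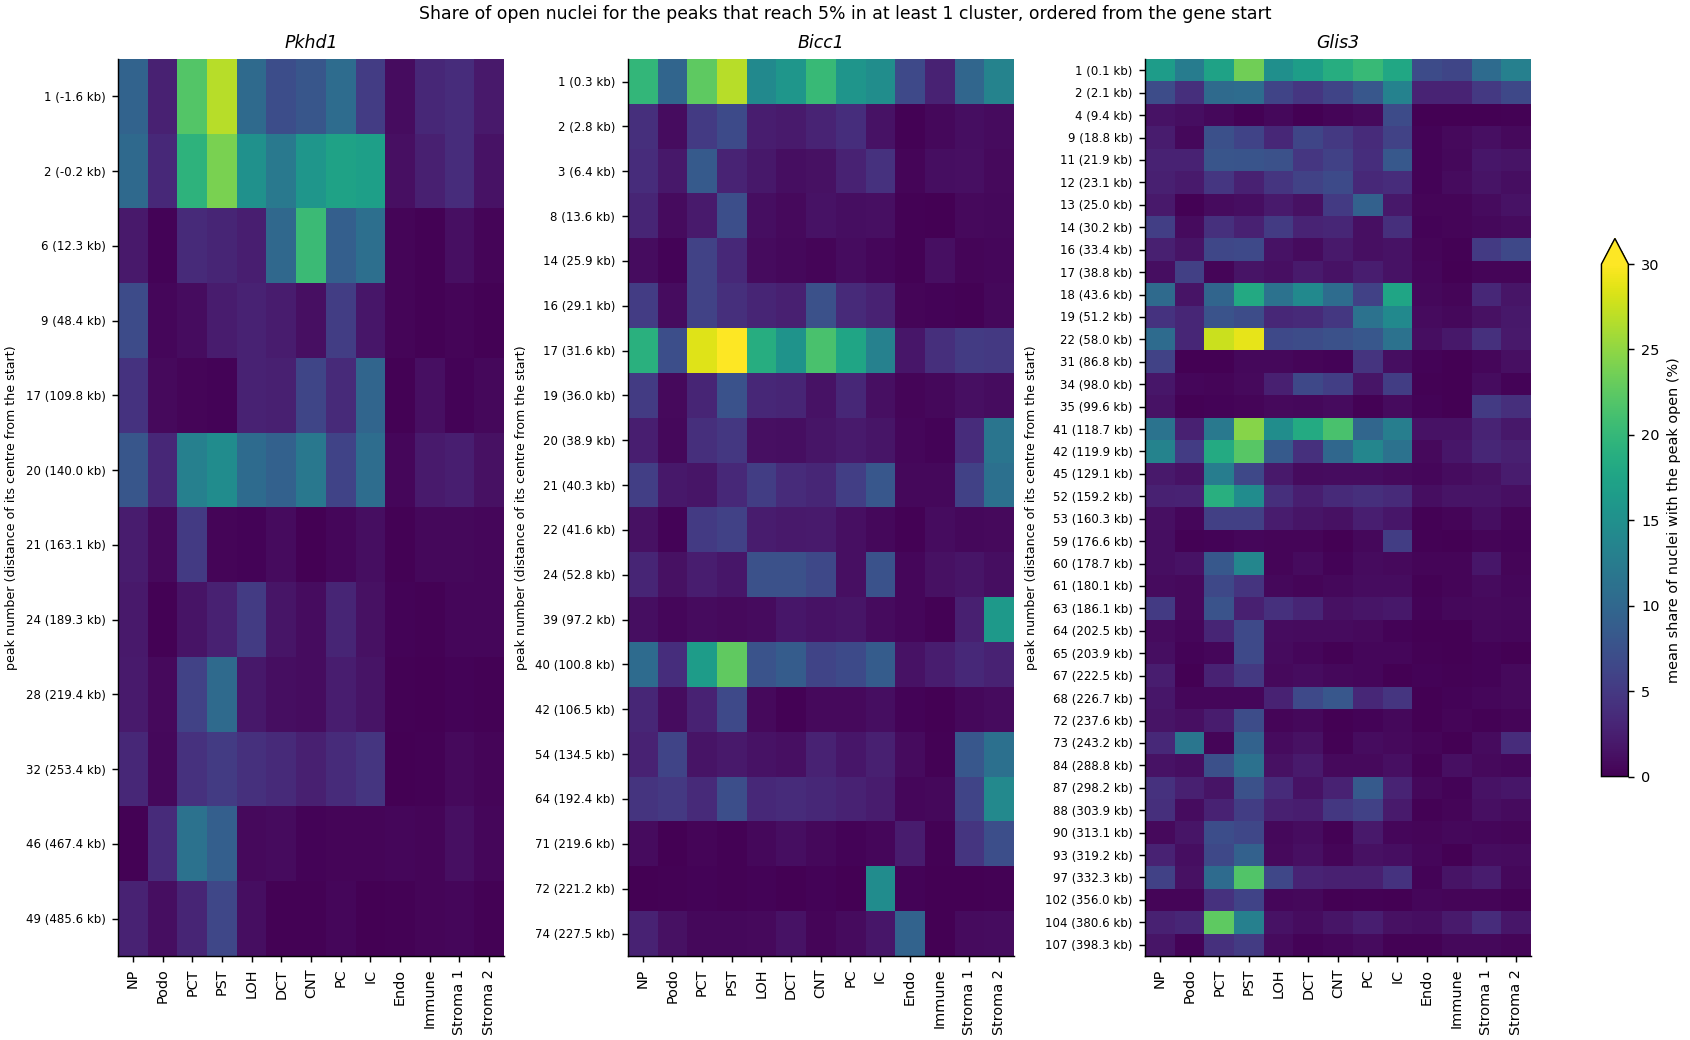
Mean share of open nuclei over the 5 samples, in percent, for the peaks of Pkhd1, Bicc1 and Glis3 that were open in at least 1 cluster, with peaks in rows from the gene start on (distance in kb) and the 13 clusters in columns. The colour scale ends at 30%, and higher shares, such as 37.2% for Bicc1 peak 17 in PST, take its last colour. The start rows are bright across most columns, whereas Bicc1 peak 72 is bright in IC and Bicc1 peak 39 in Stroma 2.

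Start peaks were open in many clusters, and their order changed when shares were scaled for depth. The start of Pkd1 had the highest shares of the 7, from 34.6% ± 10.2 in Endo to 47.8% ± 16.5 in IC, and after thinning to 1000 open peaks per nucleus, with 307 P0 and 487 adult nuclei under this depth left out, its expected shares ran from 5.62% in PST to 11.9% in Immune. The start of Glis2 was open in 36.2% ± 13.2 of PST and 6.79% ± 4.70 of Immune nuclei, that of Bicc1 in 26.7% ± 8.05 and 2.86% ± 1.74, that of Pkhd1 in 23.9% ± 7.29 of PST and 1.24% ± 0.700 of Endo nuclei. Those of Pkd2 and Glis3 both had 23.5% in PST, and that of Ift88 had 18.7% ± 6.19. PST led for 6 of the 7 start peaks at full depth and for none of the 7 after thinning, when PCT led for Pkhd1 and Glis2 (3.21% and 5.94%), NP for Bicc1 (3.78%), LOH for Pkd2 (3.48%), PC for Glis3 (3.37%), Podo for Ift88 (3.57%) and Immune for Pkd1. The expected share weighs each open call by 1000 over the open peaks of its nucleus, so the deepest nuclei are scaled down most by construction. In the test, which scales for depth, the Pkhd1 start was called higher in PCT (1.77 on the log2 scale, edgeR adjusted p = 4.96e-15), LOH (1.40) and PST (1.45) and lower in Endo (−2.0, 1.73e-06), and the Ift88 start was not called in PST (0.09, 0.715).

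The Bicc1 locus held sites open mainly in 1 cluster. Peak 72, in an intron 221.2 kb from the gene start, was chosen after its values were seen. It was open in 10.0% and 16.1% of IC nuclei at P0, then 18.1% (P21), 18.1% and 10.6% (P56) (mean 14.6% ± 3.98), and its mean did not exceed 0.341% in any other cluster. IC led in 5 of 5 samples, given as a description with no test, since its high share chose it. Intercalated cells are the acid-base handling cells of the collecting duct. Peak 39, 97.2 kb from the start, was open in 16.1% ± 3.07 of Stroma 2 nuclei, with 14.8% and 11.8% at P0, then 16.0% (P21), 19.8% and 18.0% (P56). By stage it was higher in the adult there (log2 fold change 1.40, edgeR adjusted p = 3.44e-06). Stroma 1 came next with 2.66% ± 3.25, and Stroma 2 led in every sample, again with no test. The most open site of the gene, peak 17 (intron, 31.6 kb), was proximal, with 37.2% ± 12.3 in PST and 28.6% ± 7.70 in PCT against 1.79% ± 1.03 in Endo.

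Sites within Pkhd1 marked different tubule segments. Peak 6, in an intron 12.3 kb from the start, had its highest share in CNT in 4 of 5 samples, with 12.6% and 20.8% at P0, then 18.1% (P21), 21.1% and 29.7% (P56) (20.4% ± 6.19). IC had 11% ± 5.42 and DCT 10.1% ± 5.68, so the 3 highest clusters were all distal tubule or duct. In CNT it was higher in the adult (log2 fold change 0.97, edgeR adjusted p = 0.0133), a call lost without either P0 sample (0.80 and 1.14) and under DESeq2 (0.89). The sum of the 4 loop and distal tubule markers (Slc12a1, Umod, Slc12a3 and Pvalb) in CNT was 67.2 to 84.4 CPM at P0 and 314 to 451 in the adult, with 2 of the 3 tested called higher, and its part in this call was not tested. Peak 46 (intron, 467.4 kb), chosen after its values were seen, was open in 11.3% ± 1.97 of PCT and 9.13% ± 3.24 of PST nuclei and in 3.66% ± 5.14 of podocytes, where 12.8% in P56 replicate 2 stood above 0.977% to 2.13% in the others. Peak 1, 1.6 kb upstream of the gene, was likewise proximal (26.7% ± 8.12 in PST, 22.0% ± 6.0 in PCT), with 10.6% ± 3.13 in PC.

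Pkd2 and Glis3 held sites of the proximal tubule. Pkd2 peak 6, over a coding exon 21.1 kb from the start, was open in 16.9% and 13.4% of PST nuclei at P0, then 24.8% (P21), 19.0% and 37.8% (P56) (22.4% ± 9.57), and PST led in every sample. PCT had 9.71% ± 4.58 and IC 8.21% ± 2.56. Pkd2 peak 4 (intron, 11.8 kb) was open in 16.1% ± 5.51 of PCT and 16.0% ± 4.41 of PST nuclei. Glis3 peak 104 (intron, 380.6 kb), named after its values were seen, had 22.3% and 19.2% in PCT at P0, then 22.7% (P21), 15.4% and 33.2% (P56) (22.6% ± 6.64), led in every sample there, and had 13.1% ± 2.60 in PST and at most 3.77% elsewhere. Glis3 peak 73 (intron, 243.2 kb), named in the same way, was open in 11.7% ± 3.00 of podocytes and in 9.38% ± 9.83 of PST nuclei. The podocyte shares of 8.51% to 15.4% were alike in the samples, whereas PST had 1.20% to 3.76% in the P0 and P21 samples and 19.2% and 21% at P56.

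Glis2, Pkd1 and Ift88 had fewer such sites. Besides its main start, Glis2 has peaks over 2 alternative starts. Peak 4 (6.5 kb) was proximal, with 26.1% ± 6.99 in PST and 19.1% ± 4.86 in PCT, and peak 8 (13.9 kb) was highest in NP, with 23.9% ± 5.37, ahead of PC with 17.7% ± 5.01. Peak 6 (intron, 8.6 kb) was open in 27.6% ± 10.2 of LOH, 25.4% ± 5.97 of CNT and 25.1% ± 6.14 of DCT nuclei. Pkd1 peak 3 (intron, 9.4 kb) was open in 9.89% ± 1.98 of Stroma 2, 8.57% ± 6.20 of Endo and 0.543% ± 0.137 of PCT nuclei. Of the 11 Ift88 peaks the start alone reached a mean of 5% over the 5 samples in any cluster, and the next, peak 3 (coding exon, 6.7 kb), had 4.32% ± 2.30 in PST. Ift88 peak 8 passed 5% of PC nuclei in both P0 samples, as given with the stages. The TFAP2 letters were found in the windows of Glis2 peak 6 (GCCTCTGGC), Glis2 peak 5 (GCCTAGGGC), the Glis2 start (GCCTGGGGC), Pkhd1 peak 1 (GCCCTTGGC), Pkhd1 peak 46 (GCCCTCGGC) and Glis3 peak 73 (GCCATGGGC), and the FOXI1 letters in those of Glis3 peak 41 and Ift88 peak 8.

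**Figure D3:**
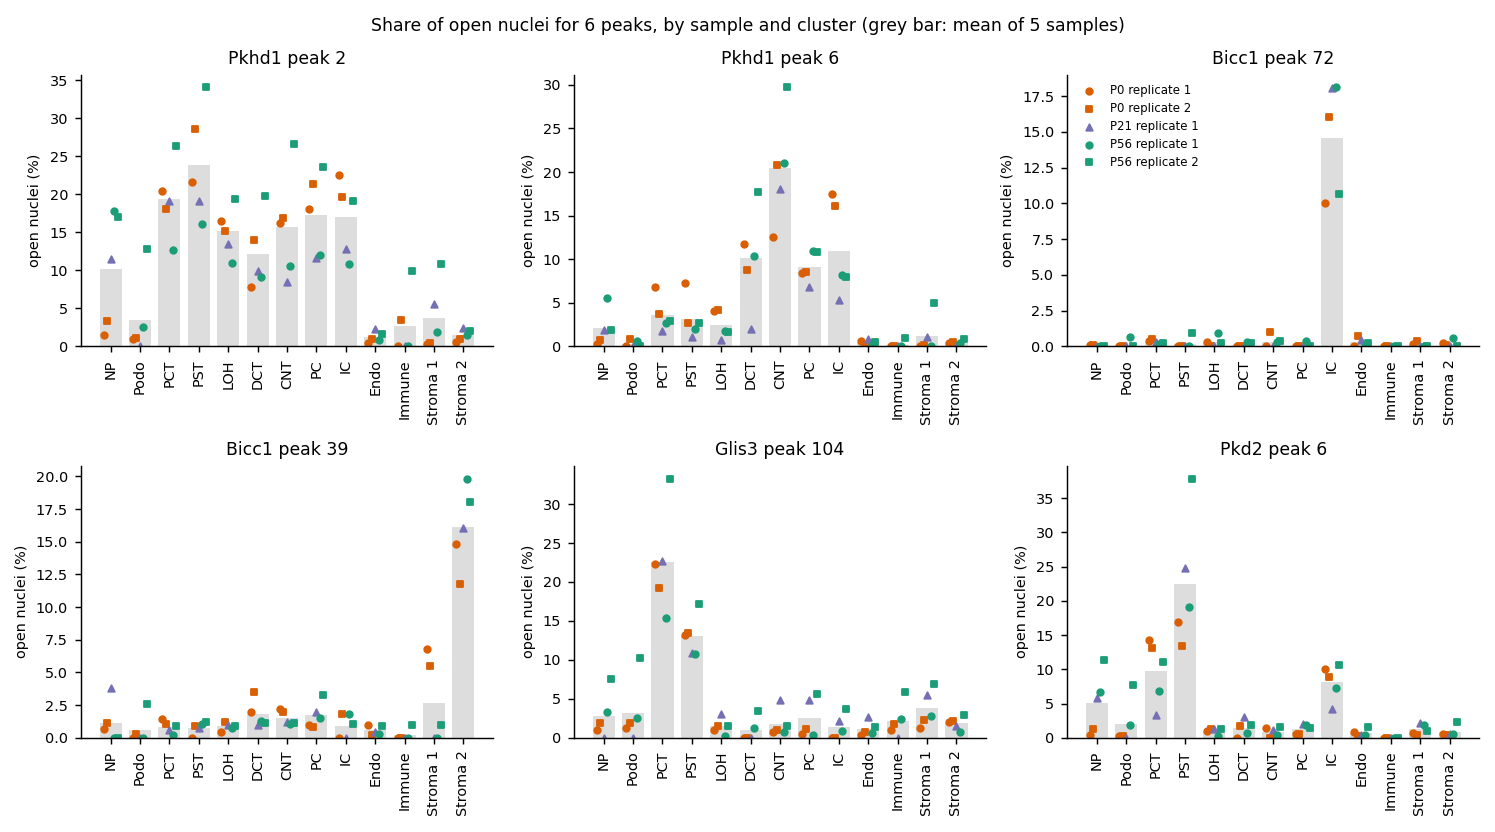
Share of open nuclei, in percent, in the 13 clusters for the start of Pkhd1 (peak 2) and 5 sites away from starts, with a grey bar for the mean of the 5 samples and a point for each sample. The Pkhd1 start is open along the whole tubule, while Bicc1 peak 72 stands out in IC (14.6%), Bicc1 peak 39 in Stroma 2 (16.1%), Pkhd1 peak 6 in CNT (20.4%), Pkd2 peak 6 in PST (22.4%) and Glis3 peak 104 in PCT (22.6%).

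The stages were compared next, adult against P0 within each cluster, with 3 and 2 samples, by the same edgeR test without a block and with BH adjustment within the cluster. Of the 89 pairs of gene and cluster tested, 25 were called higher in the adult (28.1%) and 2 higher at P0 (2.25%), where 10.5% and 13.7% of the pairs of all genes were. The median log2 fold change of the 89 pairs was 0.35, and the median over all genes was within 0.041 of 0 in each cluster. The calls fell in NP (5 genes), LOH (5), PC (3 higher and 1 lower), Stroma 1 (3 higher and 1 lower), PCT, PST, Endo and Stroma 2 (2 each) and Podo (1). Of all genes, those called higher in the adult were 18.3% in NP, 22.7% in LOH, 12.1% in PC, 13.1% in Stroma 1, 12% in PCT, 5.41% in PST, 10.4% in Endo, 15.6% in Stroma 2 and 6.27% in Podo, and those higher at P0 were 17.8% in PC and 15.3% in Stroma 1. In DCT, CNT, IC and Immune no member was called, where 1.59%, 9.71%, 0.449% and 0.0118% of all genes were called higher in the adult.

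The levels of 5 genes rose in NP. Pkhd1 had 74.8 and 64.7 CPM at P0, then 242 (P21), 299 and 190 (P56) (1.66 ± 0.15 on the log2 scale, edgeR adjusted p = 9.94e-15). Glis3 had 203 and 200 against 515, 618 and 515 (1.31, 1.24e-12), and Glis2 had 120 and 128 against 372, 256 and 328 (1.20, 3.83e-11). Bicc1 had 156 and 163 against 342, 445 and 388 (1.17, 6.28e-11), and Pkd2 had 38.5 and 40.3 against 82.1, 101 and 67.8 (0.94, 0.00012). In each of these 5 called genes all 3 adult values exceeded both P0 values, a description with no share over all genes beside it. Pkd1 (0.12, 0.644) and Ift88 (0.20, 0.633) were not called. The adult nuclei of this cluster were few, 52, 90 and 53, and their markers differed from those at P0: the sum of the progenitor genes Uncx and Cited1 was 76.2 to 76.3 CPM at P0 and 13 to 39.6 in the adult, with both called. The sum of 4 proximal tubule markers (Slc34a1, Slc5a2, Kap and Akr1c21) was 25.1 to 26.0 at P0 and 33.5 to 70.5 in the adult, where Akr1c21 was at 0. The sum of 4 loop and distal tubule markers (Slc12a1, Umod, Slc12a3 and Pvalb) was 56.6 to 62.6 at P0 and 164 to 233 in the adult, with the 3 that were tested called higher and Pvalb at 0. The part of these markers in the result was not tested.

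In LOH, where loop cells were 1287 at P0 and 2341 in the adult, Glis2 rose from 161 and 179 to 316, 261 and 324 CPM (0.84 ± 0.13 on the log2 scale, edgeR adjusted p = 0.000434). Pkd2 rose from 43.2 and 42.9 to 72.3, 77.1 and 76.2 (0.83, 0.00101), Bicc1 from 188 and 183 to 306, 304 and 223 (0.60, 0.0078), Pkd1 from 64.7 and 74.8 to 112, 75.7 and 126 (0.61, 0.0208) and Glis3 from 306 and 310 to 392, 444 and 376 (0.42, 0.0201). All 5 called genes had every adult value above both P0 values, again a description with no share over all genes, the narrowest margin being that of Pkd1. Pkhd1 did not pass (0.16, 0.353), with 168 and 149 at P0 and 158 to 193 in the adult. The sum of the 4 loop and distal tubule markers was 152 to 178 at P0 and 629 to 759 in the adult, with 3 of the 4 called higher in the adult and 1 at P0, that of the progenitor genes Uncx and Cited1 was 50.2 to 53.6 at P0 and 9.13 to 18.3 in the adult, with both called higher at P0, and the part of these markers in the result was not tested. Depth in LOH fell from 6567 to 7430 open peaks per nucleus at P0 to 2496 to 4477 in the adult. The Pkd1 call was lost without P56 replicate 2 (0.42), without P21 replicate 1 (0.58) and without either P0 sample (0.53 and 0.69). That of Glis3 was lost without either P0 sample (0.43 and 0.40), and that of Bicc1 without P0 replicate 2 (0.56). With nuclei thinned, the calls of Pkd2 (0.46), Glis3 (0.26) and Pkd1 (0.62) were lost.

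In the proximal tubule the channel gene Pkd2 and the factor gene Glis3 rose. Pkd2 in PST went from 92.0 and 80.5 to 144, 139 and 170 CPM (0.90 ± 0.17, edgeR adjusted p = 0.00512) and in PCT from 80.4 and 81.6 to 93.1, 98.6 and 99.3 (0.38, 0.0293). Glis3 rose by 0.61 in PCT (0.00577) and 0.64 in PST (0.0121). Pkhd1, by contrast, had 186 and 187 in PCT at P0 and 169, 187 and 171 in the adult (0.02, 0.885), and Glis2 in PCT did not pass either (0.09, 0.672). The sum of the 4 proximal markers, used by the authors to name these clusters, was 226 to 233 CPM at P0 and 361 to 439 in the adult in PCT (2 of 4 tested called higher), and 69.4 to 81.1 and 133 to 205 in PST (1 of 3). The sum of the 4 loop and distal tubule markers was also higher in the adult, at 178 to 230 against 120 to 124 in PCT (2 of 4) and 237 to 262 against 117 to 143 in PST (1 of 3), and the part of these markers in the results was not tested. Leaving out either P0 sample ended all 4 calls (Pkd2 1.03 and 0.79 in PST and 0.37 and 0.38 in PCT, Glis3 0.63 and 0.58 in PCT and 0.78 and 0.53 in PST), as did leaving out P56 replicate 2 for Pkd2 in PCT (0.34). With nuclei thinned, Pkd2 in PST (0.44) and PCT (0.31) and Glis3 in PST (0.64) lost their calls.

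In PC, Glis2 (0.54), Glis3 (0.48) and Bicc1 (0.40) rose and Ift88 fell, with 38.8 and 41.3 CPM at P0 against 9.20, 37.3 and 18.3 in the adult (−0.90 ± 0.28, edgeR adjusted p = 0.0197). The Ift88 call was lost under DESeq2 (−0.90) and without P0 replicate 1 (−0.93), P0 replicate 2 (−0.87), P21 replicate 1 (−0.68) or P56 replicate 2 (−0.65). In Stroma 1 the RNA-binding gene Bicc1 fell from 257 and 239 to 170, 182 and 160 (−0.71 ± 0.16, 0.00169). All its adult values there lay below both P0 values, a description with no share over all genes beside it. This Bicc1 call was lost without P0 replicate 1 (−0.64) or P56 replicate 2 (−0.62). The 3 rises in PC were lost without either P0 sample (Glis2 0.42 and 0.65, Glis3 0.50 and 0.45, Bicc1 0.44 and 0.37), and that of Glis2 also without P56 replicate 2 (0.43). With nuclei thinned they were lost too (Glis2 0.34, Glis3 0.26, Bicc1 0.38), and that of Bicc1 under DESeq2 (0.41) and with the replicate block (0.38). In PC the sum of the loop and distal tubule markers was 56.3 to 71.7 CPM at P0 and 66.4 to 136 in the adult (2 of 3 tested called higher), that of the proximal markers 23.1 to 25.9 and 24.5 to 86.5 (1 of 2), and that of the progenitor genes 24.6 to 25.1 and 7.04 to 11, with the 1 tested called higher at P0. The part of these markers in the PC results was not tested.

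In Stroma 1 Pkhd1 (1.08, edgeR adjusted p = 0.000337), Glis2 (0.77) and Glis3 (0.71) rose. All 3 calls were lost without P0 replicate 1 (0.94, 0.67 and 0.69), those of Pkhd1 and Glis3 without P56 replicate 2 (0.83 and 0.59), and that of Glis3 without P0 replicate 2 (0.67). With nuclei thinned the calls of Glis2 (0.36) and Glis3 (0.50) were lost and Pkhd1 gave no value. Pkhd1 also rose in Endo (1.18, 0.0273) and Podo (1.03, 0.00733), from levels of 8.44 to 47.3 to levels of 15.8 to 99.0, and Stroma 2 and Endo had calls for Pkd1 (0.48 and 0.54) and Stroma 2 for Pkd2 (0.62). In these 4 clusters outside the tubule the sum of the 4 proximal markers was also higher in the adult, at 43.7 to 129 against 23.8 to 26.7 in Stroma 1, 59.0 to 114 against 24.0 to 30.3 in Podo, 35.8 to 63.5 against 32.9 to 34.9 in Endo and 30.3 to 64.9 against 23.9 to 27.0 in Stroma 2. The sum of the 4 loop and distal tubule markers moved too, at 131 to 220 against 38.4 to 47.8 in Stroma 1 (3 of 3 tested called higher), 67.5 to 148 against 36.5 to 57.4 in Podo (1 of 2), 127 to 149 against 66.5 to 68.2 in Endo (2 of 3) and 71.8 to 130 against 42.2 to 42.8 in Stroma 2 (2 of 3). The part of both sets of markers in the results was not tested. Without P56 replicate 2, Pkd1 had 0.23 in Stroma 2 and 0.31 in Endo, and Pkhd1 had 0.86 in Podo and 1.05 in Endo, none of them called. Without P0 replicate 1, Pkd1 (0.49 in Stroma 2, 0.56 in Endo), Pkd2 (0.60 in Stroma 2) and Pkhd1 (0.85 in Endo) lost their calls, and without P0 replicate 2 so did Pkd1 (0.46 and 0.53), Pkd2 (0.61) and Pkhd1 in Podo (0.63). Without P21 replicate 1 the Endo calls were lost (Pkd1 0.54, Pkhd1 0.97). With nuclei thinned, Pkd2 in Stroma 2 (0.22) and Pkd1 in Stroma 2 (0.40) and Endo (0.80) were not called. DESeq2 did not call Pkd1 in Stroma 2 (0.49) and Endo (0.57) or Pkhd1 in Podo (1.03). The Podo call was also lost with sums of at least 50 nuclei (0.74), that of Pkd1 in Stroma 2 without the filter (0.48) and that of Pkhd1 in Endo with the gene body only (0.99).

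Whether the stage difference was the same in all clusters was tested with the 12 interaction terms of cluster and stage, with the sample as a block. It differed between clusters for Pkhd1 (edgeR adjusted p = 6.75e-08), Bicc1 (7.91e-08), Glis2 (1.68e-06), Glis3 (0.00158), Pkd2 (0.00261) and Ift88 (0.0148), and missed the threshold for Pkd1 (0.0924). Of all genes tested, 61.7% were called, so this count is not particular to the 7. Bicc1 gave the widest contrast among its called clusters, 1.17 in NP against −0.71 in Stroma 1. Of the 27 calls by gene and cluster, 6 held under every alternative that could test them: Pkhd1, Bicc1, Glis2, Glis3 and Pkd2 in NP, and Glis2 in LOH. The number called higher in the adult was 9 without P0 replicate 1, 10 without P0 replicate 2 and 17 to 34 without an adult sample, and 7 with nuclei thinned to 1000 open peaks.

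**Figure D4:**
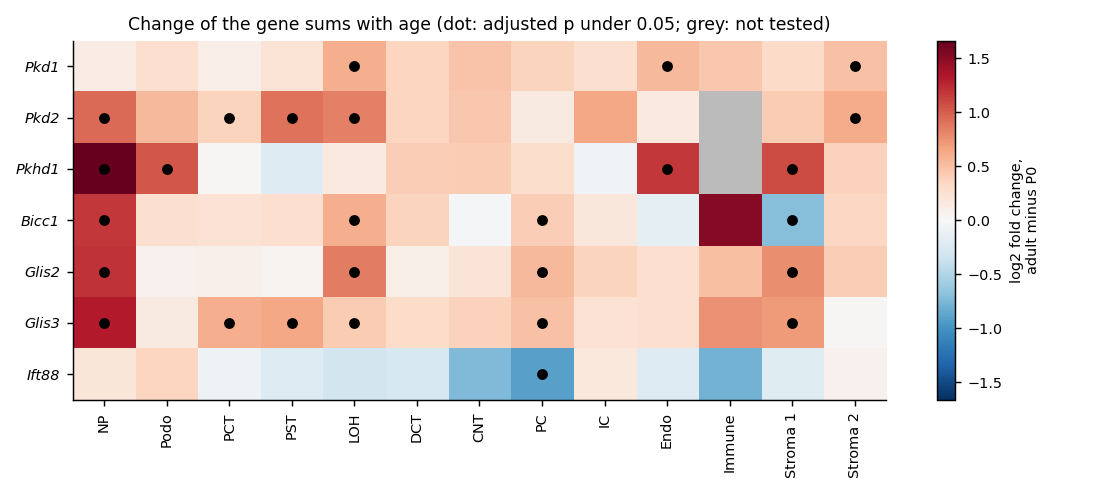
Log2 fold change of the level, adult minus P0, for the 7 genes in rows and the 13 clusters in columns, red for higher in the adult and blue for higher at P0. A dot marks an edgeR adjusted p under 0.05, and grey marks the pairs not tested, Pkd2 and Pkhd1 in Immune. The NP column holds 5 red cells with a dot, from 0.94 to 1.66, and the 2 blue cells with a dot are Bicc1 in Stroma 1 (−0.71) and Ift88 in PC (−0.90).

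The filter on low counts was applied by stage within each cluster, so a single peak can enter through the stage where it is high. The adjusted p-values by stage of single peaks, here and in other paragraphs, therefore rank them. Among single peaks, 192 of the 279 could be tested by stage in at least 1 cluster. Of their 560 pairs with a cluster, 131 were called higher in the adult (23.4%, against 16% over all peaks) and 30 higher at P0 (5.36%, against 18%), and the median log2 fold change was 0.34. Glis3 had 51 and 10 in 205 pairs tested, Bicc1 33 and 9 in 123, Glis2 18 and 1 in 88 and Pkd2 11 and 3 in 33. Pkhd1 had 11 and 6 in 70, Pkd1 7 and 0 in 24 and Ift88 0 and 1 in 17. The pairs tested differ between genes, so the calls alone do not order the genes. LOH held 45 of the adult calls, from 109 peaks tested there (24.5% over all peaks), PCT 29 from 152 (16.3%) and NP 8 from 15 (20.6%). At P0, LOH had 5 higher, where 29.9% of all peaks were. Of these calls, 118 and 28 were in the 465 pairs of peaks away from the starts, whose median was 0.45, and 13 and 2 in the 95 pairs of the 9 peaks over starts, whose median was 0.16. The same split over all peaks was not made. The adult count was 57 without P0 replicate 1, 65 without P0 replicate 2, 160 to 195 without an adult sample and 10 after thinning, and the P0 count was 8, 13, 27 to 48 and 4.

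A Glis3 intron and a Bicc1 intron opened in many clusters. Glis3 peak 22 (58.0 kb) was open in 1.07% and 0.896% of NP nuclei at P0 and in 15.4%, 12.2% and 22.6% in the adult (4.22 ± 0.48 on the log2 scale, edgeR adjusted p = 8.09e-17). In PCT it went from 19.0% and 16.3% to 30.7%, 25.7% and 46% (1.31, 0.000668), and it was called higher in the adult in 8 clusters, PST, LOH, PC, both stromal clusters and Endo being the others. Bicc1 peak 40 (100.8 kb) was called in 6 clusters, with 8.59% and 6.82% of PCT nuclei at P0 against 21.9%, 18.5% and 26.9% (1.93 ± 0.22, 7.08e-05) and 2.23% and 2.59% of NP nuclei against 15.4%, 13.3% and 18.9% (2.91, 5.06e-11). In these 4 pairs every adult share lay above both P0 shares, a description with no share over all peaks beside it. The calls of Glis3 peak 22 in PST and Endo and of Bicc1 peak 40 in PST and PC were lost without either P0 sample (0.85 and 1.27, 2.67 and 3.28, 1.7 and 1.19, 1.53 and 0.77), that of Glis3 peak 22 in Stroma 2 without P0 replicate 1 (2.31) and that of Bicc1 peak 40 in PC without P21 replicate 1 (0.99). With nuclei thinned, Glis3 peak 22 in PCT (0.93) and PST (1.36) and Bicc1 peak 40 in LOH (1.29) and PST (2.73) were not called. Without the filter, Glis3 peak 22 in PC (1.94) and Bicc1 peak 40 in PC (1.03) were not, nor was the latter under DESeq2 (1.17). The changes of NP stand beside the marker values given for that cluster. In NP, Glis3 peak 22 and Bicc1 peak 40 passed the filter on low counts through the adult samples alone, which held 52, 90 and 53 nuclei. Their p-values there rank them and are no support for opening.

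In LOH, introns of Pkd2 and an alternative start of Glis2 opened although the nuclei were shallower. Pkd2 peak 3 (6.3 kb) went from 0.630% and 0.153% of nuclei at P0 to 4.57%, 1.92% and 4.31% (4.15 ± 0.54 on the log2 scale, edgeR adjusted p = 6.57e-07), and Pkd2 peak 4 from 1.57% and 1.38% to 5.08%, 4.99% and 4.86% (2.89, 8.7e-07). Glis2 peak 4 went from 4.25% and 4.91% to 9.39%, 7.97% and 16.6% (2.42, 1.29e-07). At Glis2 peak 6, in an intron, the shares overlapped, 16.5% and 25.6% against 32.5%, 20.8% and 42.5%, whereas the levels, 24.8 and 33.1 against 81.9, 76.4 and 87.8 CPM, did not (1.7, 2.02e-06). This is a description with no share over all peaks beside it. In PST, Pkd2 peak 3 had 3.61% and 2.68% at P0 against 5.64%, 8.83% and 42.5% (2.68 ± 0.73, 0.026), where P56 replicate 2 stood above the others and the call held without it, and Pkd2 peak 6 rose by 1.06 (0.0147). These 2 PST calls were lost without P0 replicate 1 (2.94 and 1.30) or P0 replicate 2 (2.66 and 1.11), that of peak 3 also under DESeq2 (2.59) and that of peak 6 with nuclei thinned (0.99).

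The start of Pkd1 was called higher in the adult in 5 clusters, PC (0.47), Stroma 2 (0.56), LOH (0.96), Stroma 1 (0.42) and Endo (0.98), on CPM. Its shares overlapped between the stages in each of these, for example 40.4% and 40.0% of Endo nuclei at P0 against 28.5%, 19.8% and 44.3% in the adult. Each of the 5 calls was lost without P0 replicate 1 (0.30 in PC, 0.44 in Stroma 2, 0.79 in LOH, 0.29 in Stroma 1 and 0.88 in Endo), and all but that of LOH without P0 replicate 2 (0.50, 0.53, 0.35 and 0.99). Those of PC, Stroma 2 and Stroma 1 were lost without P56 replicate 2 (0.29, 0.19 and 0.05), and that of PC without P21 replicate 1 (0.53). The direction turned in PC with nuclei thinned (−0.033) and in Stroma 1 without the filter (−0.25). With nuclei thinned the calls in Endo (0.87), LOH (0.59) and Stroma 2 (0.19) were lost, without the filter those in PC (0.36) and Stroma 2 (0.16), under DESeq2 those in PC (0.44), Stroma 1 (0.33) and Stroma 2 (0.53), and with its size factors those in Stroma 1 (0.36) and Stroma 2 (0.52). The Pkd2 start fell in NP, from 19.2% and 23.9% to 13.5%, 5.56% and 13.2% (−0.90 ± 0.32 on the log2 scale, edgeR adjusted p = 0.0145), while the Pkd2 level over the whole gene rose there. That fall was lost without P56 replicate 1 (−0.85) or P56 replicate 2 (−0.96).

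A Pkhd1 intron closed in the adult loop and duct. Pkhd1 peak 24, 189.3 kb from the start (chr1:20428466-20429075), was open in 12.9% and 10.9% of LOH nuclei at P0 and in 0.761%, 0.672% and 0.994% in the adult (−2.72 ± 0.36 on the log2 scale, edgeR adjusted p = 9.34e-07). In PC it had 8.12% and 5.43% at P0 and 0%, 0.376% and 1.42% in the adult (−2.76, 0.0024), where the 0 of 103 nuclei at P21 allows a share of up to 2.91%. In PCT it had 3.66% and 2.15% against 0.651% to 0.783% (−1.57, 0.0109). All adult shares lay below both P0 shares in the 3 clusters, a description with no share over all peaks beside it. The Pkhd1 start in LOH rose by 1.00 on the same scale (0.000951). Without P0 replicate 2 the calls of peak 24 in PC (−3.19) and PCT (−1.73) and of the start in LOH (0.80) were lost, as was that of PCT without P0 replicate 1 (−1.32). Those of peak 24 in PC (−2.84) and PCT (−1.20) were lost without the filter, and that of the start in LOH with nuclei thinned (0.31). Ift88 peak 8 (intron, 85.9 kb, over the antisense gene Ift88os) was likewise open in PC at P0, at 5.84% and 10.6%, against 0%, 0.752% and 0.472% in the adult (−3.37 ± 0.66, 0.000458), a call lost without the filter (−3.46). In PC, Ift88 peak 8 and Pkhd1 peak 24 passed the filter through the P0 samples alone, as did Pkhd1 peak 24 in LOH. These p-values rank the peaks and are no support for closing. The central 300 bases of Pkhd1 peak 24 (chr1:20428621-20428920, minus strand), the site that closed most clearly, and of Glis2 peak 6 (chr16:4603148-4603447, plus strand), the most open site of LOH away from the starts that rose, follow, with the TFAP2 letters in capitals. None of the 7 motifs was found in the Pkhd1 window.
Pkhd1 peak 24: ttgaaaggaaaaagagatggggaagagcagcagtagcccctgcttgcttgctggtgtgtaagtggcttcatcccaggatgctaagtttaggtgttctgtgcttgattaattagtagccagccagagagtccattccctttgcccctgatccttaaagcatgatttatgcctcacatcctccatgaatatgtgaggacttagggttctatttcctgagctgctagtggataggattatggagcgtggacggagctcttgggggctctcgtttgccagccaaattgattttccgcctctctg
Glis2 peak 6: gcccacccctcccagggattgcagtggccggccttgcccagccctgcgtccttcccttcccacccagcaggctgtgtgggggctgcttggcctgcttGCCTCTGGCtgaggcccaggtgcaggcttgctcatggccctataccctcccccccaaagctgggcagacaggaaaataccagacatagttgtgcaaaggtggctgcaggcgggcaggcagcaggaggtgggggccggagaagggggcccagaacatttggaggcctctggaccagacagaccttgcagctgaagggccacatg

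**Figure D5:**
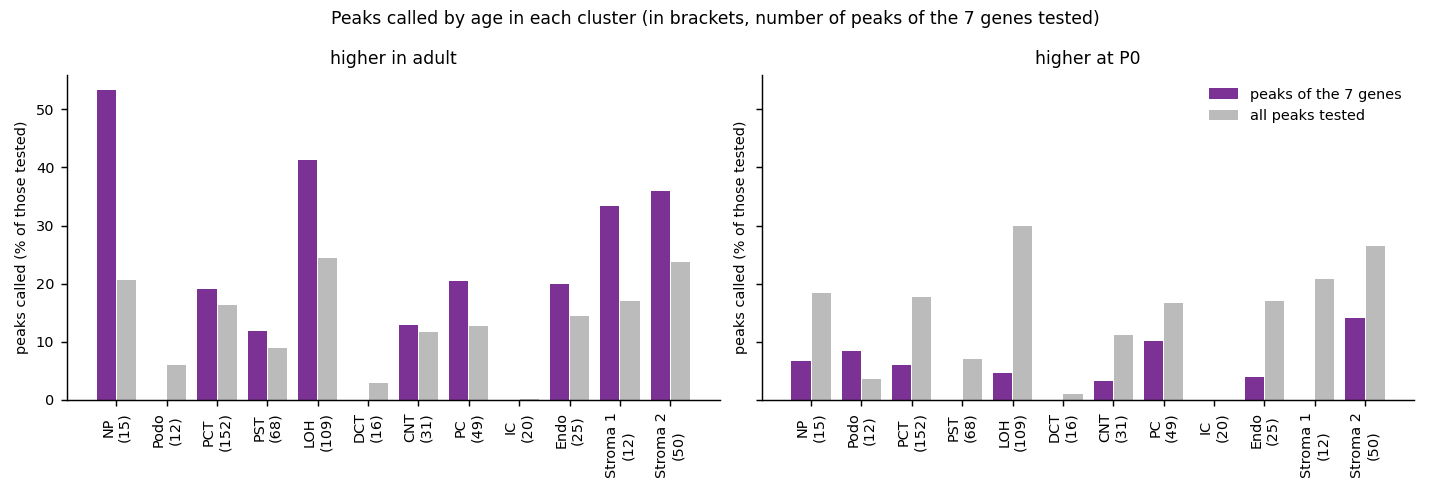
Percent of tested peaks called by stage in each cluster with at least 10 tested peaks of the 7 genes (number tested in brackets), higher in the adult on the left and higher at P0 on the right. Purple bars are the peaks of the 7 genes and grey bars all peaks tested. In LOH the purple bar stands for 45 of 109 peaks beside 24.5% on the left, and for 5 of 109 beside 29.9% on the right.

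The genes most like each member were found by the Pearson correlation of log2 levels plus 1 over the 65 sums of sample and cluster. The sums share libraries and depth, so the correlations are a description. Pkhd1 was closest to Wwc1 (r = 0.953), Fhod3 (0.949) and the epithelial splicing factor gene Esrp2 (0.925), and Glis3 to the myosin gene Myo5b (0.927), Col18a1 and Clmn (both 0.914). Glis2 was closest to Phyhipl (0.897), Syne2 (0.890) and the proximal amino acid transporter gene Slc6a19 (0.888), Pkd1 to the erythropoietin gene Epo (0.877), Zbtb8os (0.876) and Rap2a (0.872), and Pkd2 to Gm42791 (0.873), the integrin gene Itgb6 (0.851) and the laminin gene Lamb1 (0.845). Bicc1 was closest to Farp1 (0.870), Ptpn13 (0.844) and Lamb1 (0.835), and for Ift88 no gene came above Gemin6 (0.605). Between members, r was 0.892 for Pkhd1 and Glis3, 0.859 for Glis2 and Glis3 and 0.807 for Pkd2 and Glis3, whereas Pkd1 had −0.259 to −0.461 with the other 6 and Ift88 had −0.137 to 0.0105 with the other 5.

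Related genes that are not members were read from 7 lists, beside 19.1% of pairs higher and 16.7% lower by cell type over all genes, and 10.5% higher in the adult and 13.7% higher at P0 by stage. Of the polycystin family (Pkd1l1, Pkd1l2, Pkd1l3, Pkd2l1, Pkd2l2 and Pkdrej), 5 of 6 genes were tested, with 11 of 65 pairs of gene and cluster called higher and 4 lower, and by stage 1 of 37 higher in the adult and 12 higher at P0 (median −0.54). Pkd1l2 was higher in Immune (2.55, 63.4 ± 40.8 CPM) and Pkd1l3 in IC (1.67), and Pkd1l1 and Pkd1l2 were each higher at P0 in 4 clusters. Of 12 genes of polycystin maturation and other cyst genes, 29 of 156 pairs were higher and 25 lower, and by stage 24 of 150 were higher in the adult and 4 at P0 (median 0.21). In this list Prkcsh, the glucosidase gene of polycystic liver disease, was higher in the adult in 5, and Dzip1l was lower in Endo (−1.96).

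The Gli and Glis relatives (Gli1, Gli2, Gli3, Glis1, Zic1, Zic2 and Sufu) went the other way from Glis2 and Glis3 by stage: 2 of 72 pairs were higher in the adult and 37 higher at P0, with a median of −0.71 on the log2 scale, where 10.5% and 13.7% of pairs over all genes were. Gli2 was higher at P0 in 10 clusters and in the adult in 1, and Gli3 at P0 in 9. By cell type 24 of 91 pairs were higher and 19 lower, with Gli3 lower in Immune (−2.0) and Zic1 at 0 open calls in 386 Immune nuclei, which allows up to 2.19 CPM, against a mean of 5.55 CPM elsewhere. Among the partners of Ift88, the 18 other IFT-B and kinesin-2 genes had 33 of 234 pairs higher and 30 lower, and by stage 19 of 219 higher in the adult and 3 at P0 (median 0.13). Kif3b, a kinesin-2 motor gene, was higher in Immune (1.27), Ift74 in Endo (0.90), and Ift172 and Ift27 in 5 adult clusters each.

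The 11 IFT-A and dynein-2 genes had 27 of 143 pairs higher, 29 lower, and 12 adult and 4 P0 calls in 137 pairs (median −0.02), against 19.1% and 16.7% by cell type and 10.5% and 13.7% by stage over all genes. Ift122 (1.79, 359 ± 66.4 CPM) and Ift140 (1.64, 360 ± 104) were both higher in Endo, and Ift140 and Ift43 were higher in the adult in 4 clusters each. These levels also count peaks that overlap other genes. The setting with peaks of no other gene is not given for the listed genes, so such peaks may carry these values. The 16 genes of nephronophthisis and the inversin compartment had 37 of 208 pairs higher and 33 lower, with 8 adult and 30 P0 calls in 204 pairs (median −0.06). Zfp423, a zinc finger gene of this group, was lower in Immune (−2.60) and higher at P0 in 10 clusters, and Nphp4 was higher at P0 in 7. The 11 genes listed with the BBSome, a complex that carries cargo to the cilium, had 16 of 143 pairs higher and 15 lower, with 9 adult and 10 P0 calls in 131 pairs (median −0.04). Ttc8 was higher in PCT (1.38) and Bbs1 in IC (1.05), Mkks was higher in the adult in 5 clusters and Bbs9 at P0 in 4.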

How the data were processed

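Single nucleus ATAC-seq was done on whole mouse kidneys in 5 samples. The authors ran Cell Ranger ATAC 1.1.0, filtered barcodes on fragment number, promoter ratio and mitochondrial reads, used SnapATAC with Harmony for clustering, and merged the MACS2 peaks called per cell type over all samples together. The deposited matrix holds whole-number counts per peak and nucleus, binarised (open or not), and the authors' cluster names were used as deposited. The methods name no doublet step for these nuclei, and none was added here. Table names of samples were matched to the labels by stage and number. Other data types of the series were not used here.

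Open calls were summed over each sample and cluster (65 sums, 13 clusters), for each peak and for the peaks of each protein-coding gene (body and 2000 bp upstream, GENCODE M21, mm10). The clusters NP_LOH and PT_out, 664 nuclei, were left out. The tests were edgeR 4.0.16 quasi-likelihood fits in R 4.3.3 (filterByExpr, minimum count 10, minimum total 15, TMM, BH at 0.05), over all features. Cell type fits compared each cluster with the mean of the other 12, sample as a block. Stage fits compared adult (n = 3) with P0 (n = 2) within a cluster. SE is the log2 fold change over the root of F. Open-call counts per sample ran from 16980853 to 43794155, and intervals for a count of 0 (3 counts) cover counting error only. The fits were also run on simulated data with set fold changes, and the outcome is not reported here. Alternatives were DESeq2 1.42.0, its size factors, no filter, nuclei thinned to 1000 open peaks, sums of at least 50 nuclei, the block, the gene body only, peaks of no other gene, and each sample left out.

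The members and lists were chosen with earlier results of these data known. Peaks were named by rule: those over a member's start, the 2 others with the highest share in their leading cluster, and the 2 with the smallest adjusted p by stage. Another 4 (Bicc1 peak 72, Glis3 peaks 73 and 104, Pkhd1 peak 46) were chosen after their values were seen. Sequences came from the GRCm38 RefSeq genome. Results on some listed genes and one motif are not reported here.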

Additional observations from a re-analysis of the deposited data

Results flagged for a closer look

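The stage difference was not the same in all clusters for 6 of the 7 genes, by the edgeR test of the 12 interaction terms of cluster and stage over the 5 samples, where 61.7% of all genes tested were called. The adjusted p was 6.75e-08 for Pkhd1, 7.91e-08 for Bicc1, 1.68e-06 for Glis2, 0.00158 for Glis3, 0.00261 for Pkd2 and 0.0148 for Ift88. For Pkhd1 the log2 fold change of adult over P0 ran from 1.66 in NP to −0.22 in PST, and for Bicc1 from 1.17 in NP to −0.71 in Stroma 1 among the clusters called. Without either P0 sample the test called 3 genes. The adult NP nuclei, 195 in all, carried fewer open calls at the progenitor markers than the P0 nuclei, and the part of this in the interaction was not tested.

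The 2 clusters left out of the comparisons also had open calls at these genes. The cluster named NP_LOH, with 218 nuclei of which 1 sample gave 1, had 1247 open calls in the 7 genes (1772 CPM, open calls per 1000000), with 584 for Glis3, 378 for Bicc1, 343 for Glis2 and 250 for Pkhd1. The cluster named PT_out, with 446 nuclei, had 4193 open calls (1379 CPM), with 485 for Glis3, 287 for Glis2 and 264 for Bicc1. These values have no replicate test.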

How the results depend on the processing

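Among the calls by cell type, 35 of 51 gene calls and, for the 34 named peaks, 99 of 182 peak calls held under every alternative that gave a value, and by stage 6 of 27 gene calls and 19 of 61 calls of these peaks did. With nuclei thinned to 1000 open peaks, peak pairs called by cell type went from 295 higher and 159 lower to 58 and 19. By stage they went from 131 higher in the adult and 30 at P0 to 10 and 4. Gene pairs by stage went from 25 and 2 to 7 and 1, and by cell type from 31 and 20 to 26 and 17. Start peaks leading in PST went from 6 to 0. Thinning removes most counts, and the part of this in the lost calls was not tested. Without the filter on low counts, peak pairs were 703 higher by cell type, and 207 and 78 by stage. DESeq2 gave 17 peak pairs and 1 gene pair higher at P0. Leaving out each sample in turn gave 221 to 336 and 105 to 156 peak pairs by cell type, 57 to 195 and 8 to 48 by stage, 9 to 34 and 0 to 4 gene pairs by stage, and 3 to 7 genes with an interaction. Without a P0 sample the lone P0 sample is assumed to vary like the others. DESeq2 was not run for the interaction.

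Direction reversed in 3 cases: Glis3 peak 18 in LOH (−0.22) and Pkd1 peak 1 in PC (−0.033) by stage with nuclei thinned, and Pkd1 peak 1 in Stroma 1 by stage without the filter (−0.25). The cause was not tested.

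P0 and P56 samples share replicate numbers but no animal. Their deviations from the group means correlated from 0.0274 to 0.221 over 13 clusters, over 0.1 in 4, so the numbers were not taken as pairs. With the replicate block the stage calls were 120 and 30 peak pairs and 24 and 2 gene pairs. Without the sample block by cell type, 259 and 118 peak pairs and 22 and 16 gene pairs were called. The few nuclei of some sums (39 at the least) and the 2 P0 samples limit what the stage tests can show.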
